A study of Homo sapiens with 6 samples.

Results

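The respiratory chain was described at the RNA level, as 100 of the 32896 genes in the table. The genes were chosen by symbol among those annotated as protein coding. They comprise the NDUFA, NDUFB, NDUFC, NDUFS and NDUFV genes of complex I, SDHA to SDHD of complex II and the UQCR genes of complex III. They also comprise the COX4 to COX8 genes of complex IV, the ATP5 genes of complex V and the protein-coding genes of the mitochondrial genome. NDUFA4L2 and the NDUFAF assembly factors were left out of the count. Of these genes, 87 are nuclear and 13 mitochondrial.

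RNA-seq was done in BHT101, an established human cell line from an anaplastic thyroid carcinoma. The 3 SK4 libraries came from cells transfected with a plasmid for SK4, the calcium-activated potassium channel encoded by KCNN4, and the 3 control libraries from cells given a control plasmid. Both groups received the plasmid with the same lipid reagent and were harvested after 48 h. The study looked for genes acting downstream of the channel. For control replicate 3 the treatment field reads BHT102 and the cell line field BHT101, and the library was kept as a control by its title. Separate cultures are not stated for the samples of a group, so p-values reflect the spread between these libraries alone, and that spread may be technical.

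The respiratory chain passes electrons from NADH (complex I) and succinate (complex II) through complex III to oxygen at complex IV, and the proton gradient this builds drives ATP synthesis at complex V. Most subunits are encoded in the nucleus and imported. A few core membrane subunits of complexes I, III, IV and V are encoded in the mitochondrial genome, which is copied into long transcripts from its heavy and its light strand that are then cut at the tRNAs between the genes. Complex II is encoded in the nucleus alone.

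KCNN4 had 184.14, 147.66 and 169.2 FPKM (fragments scaled by gene length and by the mapped fragments of each library) in SK4 libraries, against 8.31, 8.26 and 8.52 FPKM in control libraries. The libraries therefore matched their labels. It was 18.8-fold higher in SK4 libraries (95% interval 16.6 to 21.3, limma adjusted p = 8.83e-07). An exact permutation test, two-sided, returned p = 0.1, the smallest that 3 against 3 libraries allow. Depth, estimated from the steps of the lowest FPKM values, was 36500000 to 38300000 fragments in SK4 libraries and 29700000 to 38500000 in control libraries. The lowest depth was that of control replicate 3. Epithelial keratin and adhesion markers were present, with a summed level of 595 to 648 FPKM in SK4 libraries and 577 to 626 FPKM in control libraries (6 of 6 markers tested). Thyroid markers were near 0, with sums of 0.54 to 0.67 FPKM in SK4 libraries and 0.48 to 0.57 FPKM in control libraries (0 of 8 tested). Leukocyte markers summed to 3.56 to 4.41 FPKM in SK4 libraries and 3.80 to 4.61 FPKM in control libraries (1 of 5 tested, CD14). Fibroblast markers summed to 25.0 to 34.2 FPKM in SK4 libraries and 24.3 to 29.7 FPKM in control libraries (2 of 5 tested). Most of this was LUM, at 27.2 ± 4.22 FPKM in SK4 libraries and 25.0 ± 2.74 FPKM in control libraries. Endothelial sums stayed at or below 0.42 FPKM (0 of 4 tested).

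Control replicate 3 and SK4 replicate 2 stood apart from the others of their groups. Over all 11139 tested genes, the median log2 difference from the mean of the other 2 libraries of the same group was -0.036 for SK4 replicate 2 and -0.097 for control replicate 3. Across genes, which are not independent replicates, these differences correlated with the GC content of the longest transcript (Pearson r = 0.55 for SK4 replicate 2 and 0.51 for control replicate 3, 11065 genes). Counts and medians with either or both of these libraries left out, on the same tested genes, are given for most groups. They stand beside those with all libraries. The settings given differ by group, as a choice made after the values were seen.

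None of the respiratory chain genes passed the test. Of the 94 genes that reached 1 FPKM in at least 3 libraries, 0 were called at an adjusted p below 0.05, against 0.00898% of all tested genes, which is KCNN4 alone. At an unadjusted p below 0.05 the count was also 0 of 94, against 1.65% of all tested genes. The smallest adjusted p among the 94 was 1.00 (limma). For 90 of the 94 genes (95.7%) the 95% interval of the fold change lay within 1.25-fold in either direction, against 74% of all tested genes. The 4 exceptions were MT-ND6, NDUFA5, NDUFA11 and UQCRHL. Of these, NDUFA5, NDUFA11 and UQCRHL averaged 3.75, 1.54 and 1.07 FPKM over all libraries, against a median of 52.3 FPKM over the 94 genes. The share of all tested genes was not matched for level. In bulk RNA, a difference in the share of cells that express a gene and one in its level per cell cannot be told apart. FPKM are scaled to each library, so a change in total RNA per cell would not show in them.

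Where the groups did not overlap, the differences were small. This held for 3 of the 94 genes (3.19%), against 5.34% of all tested genes. NDUFA8 was above the control range in all SK4 libraries (1 gene, against 3.53% of all tested genes). SDHA and MT-CO1 were below it in all SK4 libraries (2 genes, against 1.81% of all tested genes). The log2 fold change (SK4 over control) was positive for 37 of the 94 genes, or 39.4%, against 57.9% of all tested genes. Its median was -0.012 over the respiratory chain genes and 0.011 over all tested genes. The gap between these shares rested on control replicate 3. Without that library 39.4% of the respiratory chain genes and 39.0% of all tested genes were positive. Without SK4 replicate 2 the shares were 46.8% and 63.2%, and without both libraries 43.6% and 45.1%.

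**Figure D1:**
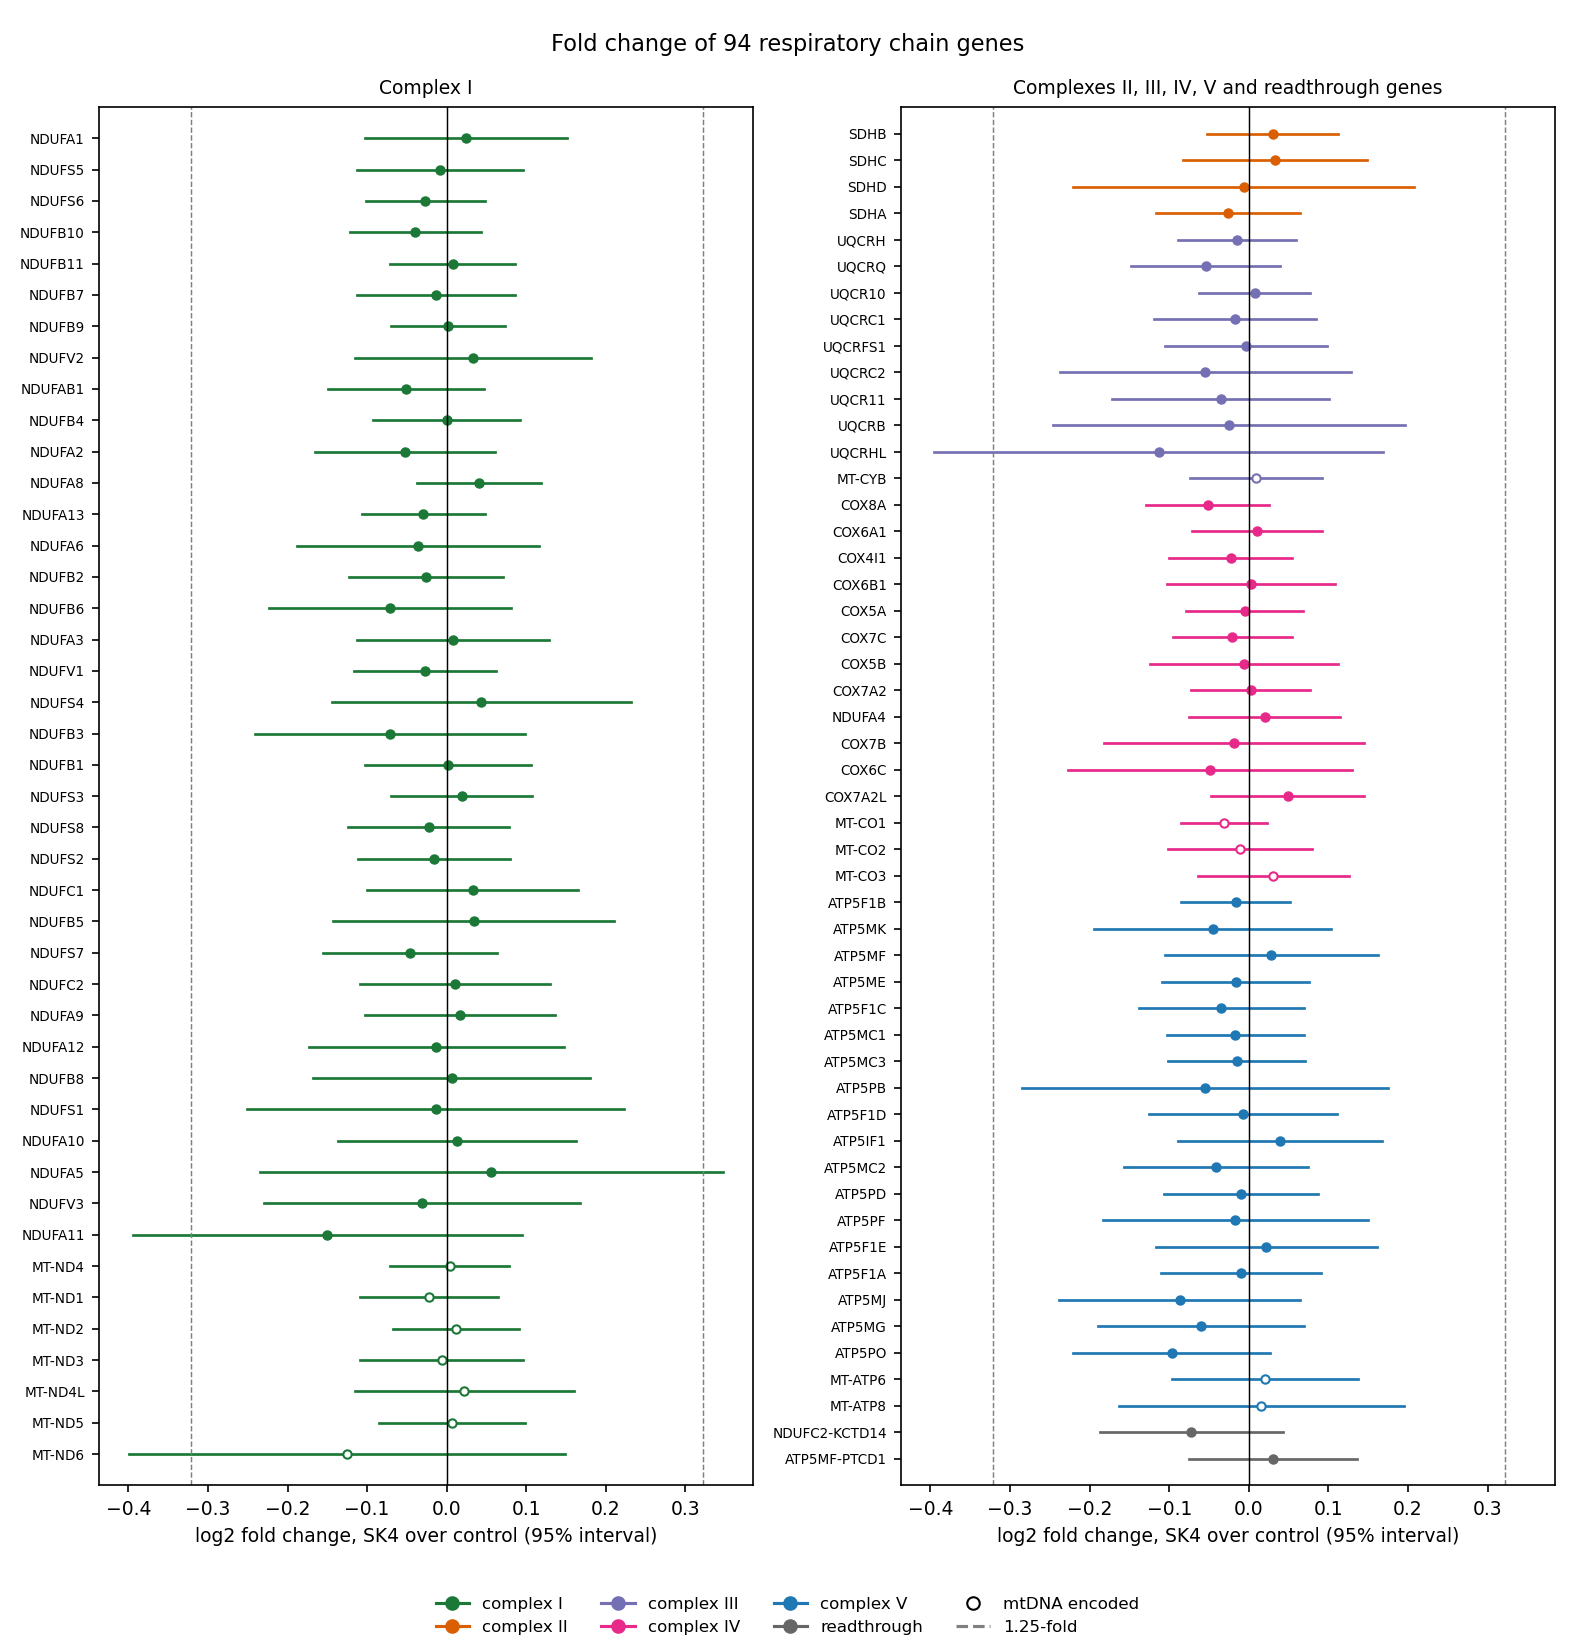
Log2 fold change, SK4 over control, with its 95% interval for the 94 tested genes, ordered by complex and mean level. Open circles are mitochondrially encoded genes and dashed lines mark 1.25-fold. Every interval holds 0, and those of 4 genes reach past 1.25-fold.

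By genome, the median log2 fold change was -0.015 over the 81 tested nuclear genes, of which 29 were positive. Over the 13 mitochondrial genes it was 0.0068, and 8 were positive. Without SK4 replicate 2 the nuclear median was 0.00026, against 0.024 over all tested genes. Without control replicate 3 it was -0.020, against -0.021 over all tested genes. With both libraries left out it was -0.014, against -0.0076 over all tested genes. Over the mitochondrial genes, 3 of 13 were positive without SK4 replicate 2 (median -0.014) and 12 of 13 without control replicate 3 (median 0.030). Without both libraries 9 of 13 were (median 0.019). Nuclear respiratory chain genes took 1.88 ± 0.0259% of the summed FPKM in SK4 libraries and 1.90 ± 0.00552% in control libraries (SD, n = 3 each). Mitochondrial mRNA genes took 19.3 ± 0.313% in SK4 libraries and 19.4 ± 0.708% in control libraries.

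**Figure D2:**
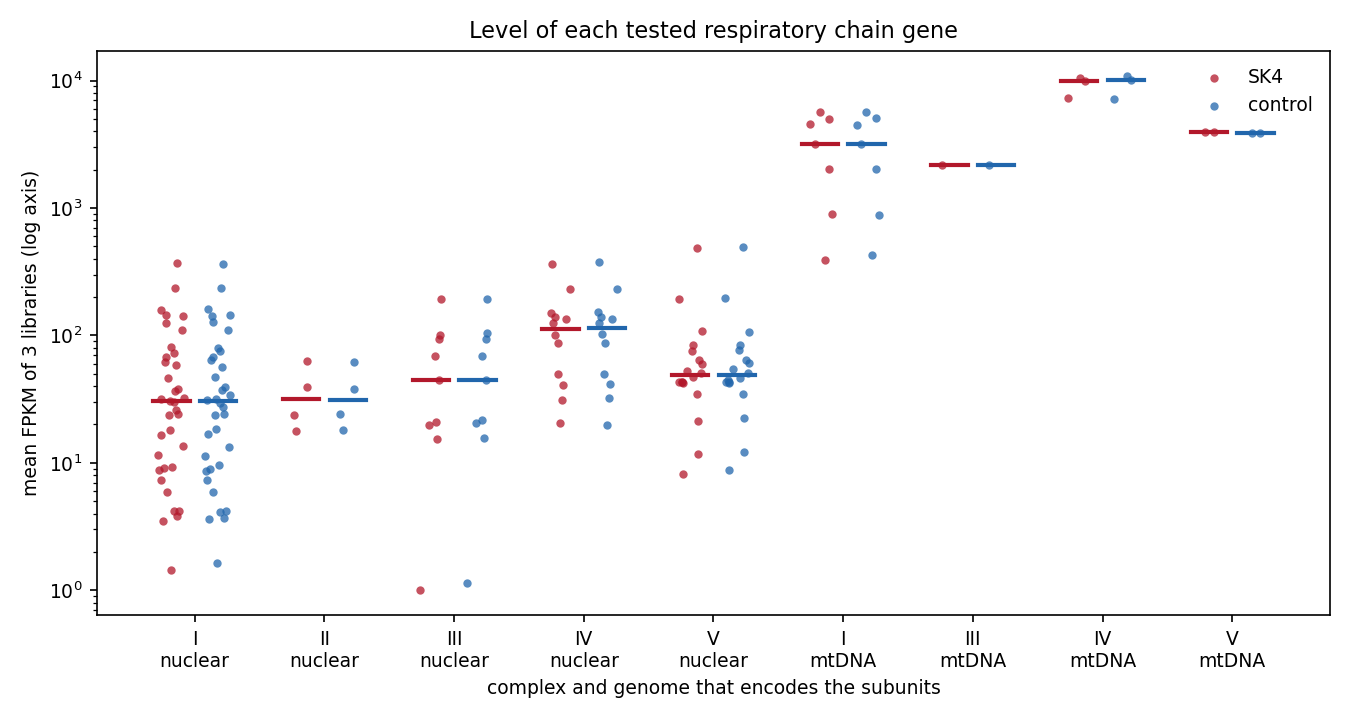
Mean FPKM of each tested gene (log axis) in SK4 and control libraries, by complex and by the genome that encodes the subunit. Bars are medians. The mitochondrial medians, from 2168 to 10015 FPKM over all libraries, stand above the nuclear ones, from 30.4 to 113 FPKM, in both groups.

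Complex I has 37 nuclear genes in the table, of which 36 were tested and 0 were called, and 17 had a positive log2 fold change (median -0.011). Without SK4 replicate 2, 21 of 36 were positive (median 0.0014), and without control replicate 3, 11 of 36 (median -0.017). With both libraries left out, 18 of the 36 genes were positive (median 0.0012). Their median level was 30.4 FPKM. The highest was NDUFA1, a small membrane subunit at the foot of the matrix arm (chrX:119871487-119876662), with 377.04, 348.22 and 382.18 FPKM in SK4 libraries and 345.87, 387.87 and 355.79 FPKM in control libraries. NDUFS5, which faces the intermembrane space, averaged 235 ± 12.8 FPKM in SK4 libraries and 236 ± 5.03 FPKM in control libraries. The groups of both genes overlapped. At the low end, NDUFV3, an accessory subunit of the NADH-oxidising module, averaged 3.52 ± 0.265 FPKM in SK4 libraries and 3.61 ± 0.317 FPKM in control libraries.

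NDUFA8 was the complex I gene whose groups stood apart. It encodes a subunit on the intermembrane-space side of the membrane arm (chr9:122144058-122159819) and had 58.4, 58.25 and 57.89 FPKM in SK4 libraries, against 54.98, 57.77 and 56.92 FPKM in control libraries. The lowest SK4 library lay just above the highest control library. Its log2 fold change was 0.04 (95% interval -0.04 to 0.12, limma unadjusted p = 0.260). NDUFA11, a membrane subunit, had the lowest log2 fold change of all members, -0.15 (95% interval -0.40 to 0.09). It had 1.3, 1.68 and 1.32 FPKM in SK4 libraries and 1.54, 1.59 and 1.79 FPKM in control libraries, so that SK4 replicate 2 lay within the control range. Without that library its log2 fold change was -0.24 (limma adjusted p = 1.00).

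The nuclear complex I genes were also read by the part of the enzyme they build. In the N module, which oxidises NADH, 2 of 8 genes had a positive log2 fold change (median -0.020). In the Q module, which reduces ubiquinone, 2 of 5 did (median -0.016). In the proximal membrane arm 5 of 7 were positive (median 0.011) and in the distal arm 6 of 11 (median 0.00013). None of these genes was called. Both libraries that stood apart moved the N module. There, 4 of 8 genes were positive without SK4 replicate 2 and 0 of 8 without control replicate 3. Without both, 2 of 8 were. In the proximal arm 6 of 7 were positive without SK4 replicate 2 (median 0.036) and 5 of 7 without control replicate 3 (median 0.036). Without both libraries 6 of 7 were (median 0.045), against a median of -0.0076 over all tested genes. Without both, 2 of 5 were positive in the Q module (median -0.019) and 6 of 11 in the distal arm (median 0.0030).

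Complex II, succinate dehydrogenase, had 4 tested genes and 0 called, and 2 had a positive log2 fold change (median 0.012). Without SK4 replicate 2, 3 of 4 were positive (median 0.036), and without control replicate 3, 2 of 4 (median 0.0012). Without both libraries 2 of 4 were (median 0.0093). SDHA, the flavoprotein that oxidises succinate (chr5:218241-256700), had 17.83, 17.74 and 17.78 FPKM in SK4 libraries, against 18.42, 17.9 and 18.03 FPKM in control libraries. All SK4 values lay below all control values, by a log2 fold change of -0.03 (95% interval -0.12 to 0.06, limma unadjusted p = 0.521). SDHB, the iron-sulfur subunit, averaged 63.0 ± 1.48 FPKM in SK4 libraries and 61.6 ± 1.38 FPKM in control libraries. The membrane anchors SDHC and SDHD followed no common direction. SDHC averaged 39.1 ± 0.679 FPKM in SK4 libraries and 38.2 ± 2.25 FPKM in control libraries, and SDHD averaged 23.9 ± 1.97 FPKM in SK4 libraries and 24.0 ± 2.69 FPKM in control libraries. The SDHA pseudogene SDHAP1 stood at 1.95 FPKM or 10.9% of the level of SDHA. The authors' handling of reads shared by such copies is not given in the sources used here.

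Complex III had 9 tested nuclear genes, 0 called, and 1 of 9 with a positive log2 fold change (median -0.025). In each library, the median of these genes after centring each on its mean was -0.00043, -0.043 and -0.013 in SK4 libraries and 0.019, 0.020 and 0.0016 in control libraries. The SK4 values lay below the control values, by little for SK4 replicate 1 and control replicate 3. In each other complex, read by genome, the groups overlapped. Over all tested genes the medians were 0.038, -0.020 and 0.0026 in SK4 libraries and 0.028, 0.030 and -0.071 in control libraries. SK4 replicate 2 was the lowest library for complex III. Without it the median log2 fold change was -0.0061 and 3 of 9 genes were positive. Without control replicate 3 the values were -0.033 and 2 of 9, and without both libraries -0.048 and 1 of 9. UQCRH, the acidic hinge protein, had 192.86, 186.66 and 196.61 FPKM in SK4 libraries and 195.58, 195.64 and 190.68 FPKM in control libraries. UQCRQ, a small subunit, averaged 101 ± 3.89 FPKM in SK4 libraries and 105 ± 2.89 FPKM in control libraries (log2 fold change -0.05). The groups of both genes overlapped. UQCRB, which lies near the ubiquinone site, averaged 15.3 ± 1.22 FPKM in SK4 libraries and 15.6 ± 1.79 FPKM in control libraries. UQCRHL, a near copy of UQCRH at another locus, was close to the filter at 1.01 ± 0.135 FPKM in SK4 libraries and 1.14 ± 0.198 FPKM in control libraries, and reads from the higher UQCRH could be assigned to it.

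Complex IV, cytochrome c oxidase, had 12 of 16 nuclear genes tested, 0 called, and 5 with a positive log2 fold change (median -0.0056). Without control replicate 3 the median was 0.0053, with 6 of 12 positive. Without SK4 replicate 2 it was -0.0018 and without both libraries -0.00033, each with 6 of 12 positive. Its nuclear genes had the highest median level of the 5 complexes, 113 FPKM. COX8A, the smallest of its membrane subunits, had 354.21, 371.38 and 361.35 FPKM in SK4 libraries and 373.82, 366.34 and 386.45 FPKM in control libraries. The groups overlapped through SK4 replicate 2 and control replicate 2, and the log2 fold change was -0.05 (95% interval -0.13 to 0.03, limma unadjusted p = 0.160). COX6A1 averaged 232 ± 3.34 FPKM in SK4 libraries and 231 ± 8.48 FPKM in control libraries. COX6C was the lowest of the broadly expressed subunits, at 31.0 ± 2.46 FPKM in SK4 libraries and 32.1 ± 2.47 FPKM in control libraries.

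Several complex IV subunits have isoforms restricted to tissues such as muscle, heart or testis, and in both groups the broadly expressed form made up nearly all of the signal. COX6B1 averaged 140 ± 4.87 FPKM in SK4 libraries and 140 ± 6.73 FPKM in control libraries, while its testis isoform COX6B2 had 0.23, 0.22 and 0.17 FPKM in SK4 libraries and 0.18, 0.14 and 0.07 FPKM in control libraries. COX7A2 averaged 86.6 ± 0.962 FPKM in SK4 libraries and 86.4 ± 1.96 FPKM in control libraries. Its muscle and heart isoform COX7A1 was listed at 0, 0.05 and 0.09 FPKM in SK4 libraries and at 0 in all control libraries. COX7B2 and COX8C stayed at or below 0.13 FPKM in every library, and with COX6B2 and COX7A1 were too low to test. COX4I1, the common form of subunit 4, averaged 149 ± 3.97 FPKM in SK4 libraries and 152 ± 2.94 FPKM in control libraries. COX4I2 and COX6A2 were not analysed here. COX7A2L, which joins complexes III and IV in supercomplexes, had 21.05, 20.33 and 20.08 FPKM in SK4 libraries and 19.58, 19.54 and 20.24 FPKM in control libraries, overlapping by SK4 replicate 3 (log2 fold change 0.05, limma unadjusted p = 0.270). NDUFA4, named for complex I but known as a complex IV subunit and counted there, averaged 50.1 ± 2.13 FPKM in SK4 libraries and 49.4 ± 0.77 FPKM in control libraries.

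Complex V, ATP synthase, had 18 of 19 nuclear genes tested, 0 called, and 3 with a positive log2 fold change (median -0.017). Without SK4 replicate 2, 7 of 18 were positive (median -0.015), and without control replicate 3, 3 of 18 (median -0.026). Without both libraries 4 of 18 were, or 22.2% (median -0.023), against 45.1% of all tested genes (median -0.0076). ATP5F1B, the catalytic beta subunit (chr12:56638175-56646068), was the highest nuclear gene of the whole chain. It had 476.46, 499.0 and 483.82 FPKM in SK4 libraries and 485.43, 497.51 and 492.79 FPKM in control libraries, and SK4 replicate 2 was the highest of all. ATP5MK, a small subunit of the membrane part, averaged 192 ± 13.1 FPKM in SK4 libraries and 198 ± 12.3 FPKM in control libraries. The smallest unadjusted p of all members belonged to ATP5PO, which links the stalk to the catalytic head (chr21:33903453-33915980). It had 8.42, 7.98 and 8.04 FPKM in SK4 libraries and 9.07, 8.77 and 8.41 FPKM in control libraries. The groups met at SK4 replicate 1 and control replicate 3, and the log2 fold change was -0.10 (95% interval -0.22 to 0.03, limma unadjusted p = 0.107).

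The c ring is built from 1 protein made by 3 genes with different import signals. ATP5MC1 averaged 63.6 ± 0.61 FPKM in SK4 libraries and 64.4 ± 2.31 FPKM in control libraries. ATP5MC3 averaged 60.1 ± 1.58 FPKM in SK4 libraries and 60.7 ± 1.54 FPKM in control libraries. ATP5MC2 averaged 43.1 ± 0.661 FPKM in SK4 libraries and 44.4 ± 2.76 FPKM in control libraries. Their order was the same in both groups, and the ranges of ATP5MC1 and ATP5MC3 overlapped in control libraries. ATP5IF1, the inhibitor that stops the synthase running backwards, had 47.76, 47.4 and 46.9 FPKM in SK4 libraries and 48.33, 47.83 and 42.3 FPKM in control libraries, where control replicate 3 was the low one. ATP5MG, a membrane subunit, averaged 11.7 ± 0.575 FPKM in SK4 libraries and 12.3 ± 0.465 FPKM in control libraries. Its log2 fold change was -0.06 (95% interval -0.19 to 0.07).

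The mitochondrial genome gave the highest levels. MT-CO1, the catalytic subunit of complex IV (chrM:5904-7445), had 10601.5, 10673.5 and 10366.8 FPKM in SK4 libraries, against 10807.2, 10704.4 and 10820.6 FPKM in control libraries. All SK4 values lay below all control values, by a log2 fold change of -0.03 (95% interval -0.09 to 0.02, limma unadjusted p = 0.216). MT-CO2, which receives electrons from cytochrome c, had 9745.7, 10043.4 and 10135.4 FPKM in SK4 libraries and 9756.9, 9784.1 and 10624.7 FPKM in control libraries. MT-CO3 had 7197.64, 7252.97 and 7325.2 FPKM in SK4 libraries and 7021.44, 6770.25 and 7544.1 FPKM in control libraries. Control replicate 3 was the highest library for both MT-CO2 and MT-CO3. Without it the log2 fold change of MT-CO3 was 0.07 (limma unadjusted p = 0.0212, adjusted p = 0.949), against 0.03 with all libraries. The level of MT-CO1 over its nuclear partner COX4I1 was 70.7 ± 1.2 in SK4 libraries and 71.1 ± 0.999 in control libraries.

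Below the 3 oxidase genes came MT-ND4, MT-ND1 and MT-ND2, core subunits of complex I. MT-ND4 averaged 5677 ± 123 FPKM in SK4 libraries and 5662 ± 182 FPKM in control libraries, and MT-ND1 averaged 5017 ± 155 FPKM in SK4 libraries and 5096 ± 199 FPKM in control libraries. MT-ND2 averaged 4552 ± 135 FPKM in SK4 libraries and 4515 ± 140 FPKM in control libraries. These 3 encode membrane subunits that pump protons or bind ubiquinone, and their order was the same in both groups. MT-ATP6 and MT-ATP8 came next, and below them MT-ND3 averaged 3189 ± 141 FPKM in SK4 libraries and 3203 ± 140 FPKM in control libraries. MT-CYB, the cytochrome b of complex III, averaged 2175 ± 81.5 FPKM in SK4 libraries and 2161 ± 52.5 FPKM in control libraries. MT-ND4L averaged 2039 ± 105 FPKM in SK4 libraries and 2010 ± 140 FPKM in control libraries, so that its range overlapped that of MT-CYB in SK4 libraries and not in control libraries. MT-ND5, a long proton-pumping subunit, averaged 892 ± 35.7 FPKM in SK4 libraries and 888 ± 28.0 FPKM in control libraries. It was the lowest of the heavy-strand mRNA genes.

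The complex V pair MT-ATP8 and MT-ATP6 lies on 1 transcript with overlapping reading frames, so the shared bases are shown here. The overlap is chrM:8527-8572 on the plus strand (GRCh38, GENCODE release 29), 46 nt that make up 22.2% of MT-ATP8 and 6.75% of MT-ATP6. Capitals mark the start codon of MT-ATP6, and the run ends with the last base of MT-ATP8.
MT-ATP8/MT-ATP6 overlap: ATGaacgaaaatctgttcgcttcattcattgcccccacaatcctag
MT-ATP8 averaged 3925 ± 250 FPKM in SK4 libraries and 3890 ± 377 FPKM in control libraries. MT-ATP6, which forms the proton path of the synthase, averaged 3946 ± 171 FPKM in SK4 libraries and 3893 ± 230 FPKM in control libraries. The ratio of MT-ATP8 to MT-ATP6 was 0.994 ± 0.021 in SK4 libraries and 0.998 ± 0.0567 in control libraries. The other overlapping pair, MT-ND4L and MT-ND4, shares 7 nt. Its ratio was 0.359 ± 0.014 in SK4 libraries and 0.355 ± 0.0144 in control libraries.

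MT-ND6 was the lowest of the 13 mitochondrial mRNA genes and the only one copied from the other template, giving a light-strand transcript (chrM:14149-14673, minus strand). It encodes a membrane subunit of complex I and had 359.33, 426.44 and 385.26 FPKM in SK4 libraries, against 375.55, 398.85 and 511.48 FPKM in control libraries. Control replicate 3 was the highest library, and the other 5 ran from 359.33 to 426.44 FPKM. Its log2 fold change was -0.13 (95% interval -0.40 to 0.15) with all libraries and 0.0087 without control replicate 3. It was -0.19 without SK4 replicate 2 and -0.057 without both libraries. The light-strand tRNA genes were read beside it, as a choice made after its values were seen. In control replicate 3, 6 of 8 were more than 1.5 times the mean of the other 2 control libraries (median ratio 1.97), against 1 of 14 heavy-strand tRNA genes (median ratio 1.05). The median ratio of the 12 heavy-strand mRNA genes was 1.07. In SK4 replicate 2, set against the other 2 SK4 libraries, the median ratio of the light-strand tRNA genes was 1.17. The ratio of MT-ND6 to MT-ND5 was 0.408, 0.458 and 0.446 in SK4 libraries and 0.437, 0.450 and 0.559 in control libraries. Without control replicate 3 its mean was 0.437 in SK4 libraries and 0.443 in control libraries. Without both libraries the means were 0.427 and 0.443.

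**Figure D3:**
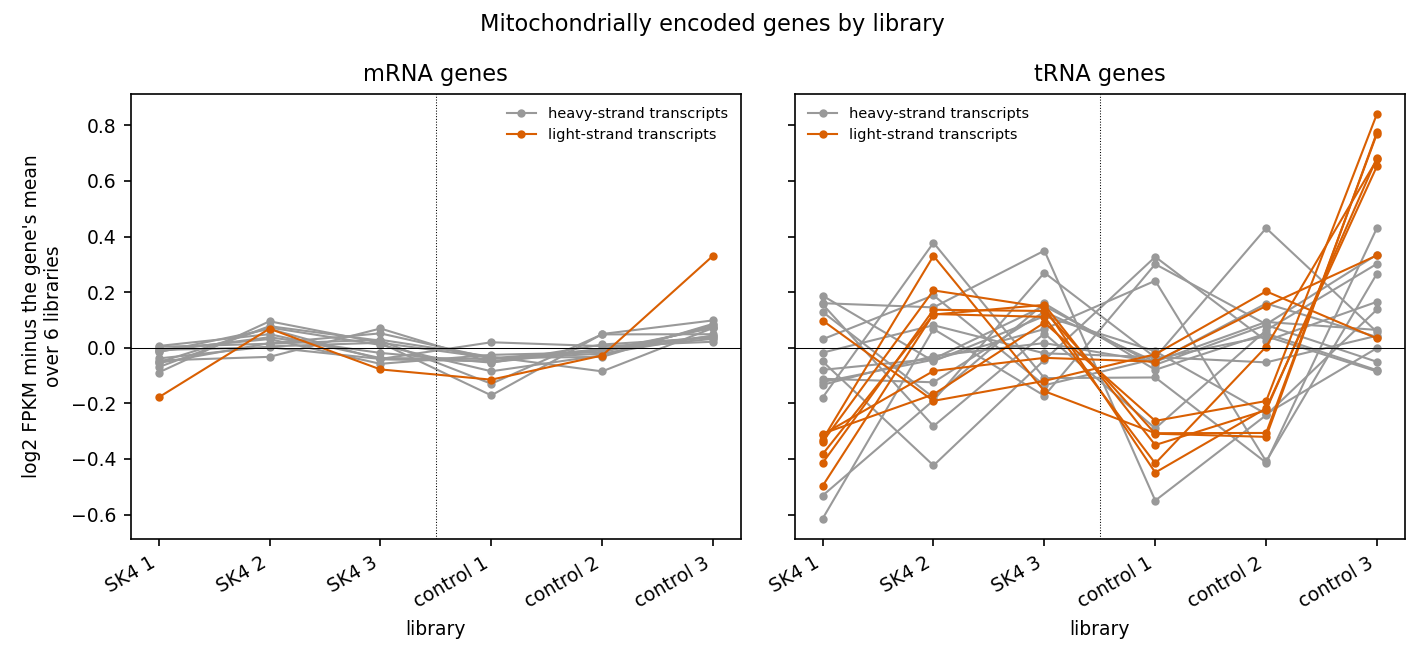
Log2 FPKM of each mitochondrial mRNA gene (left) and tRNA gene (right) minus that gene's mean over 6 libraries, by library. Light-strand transcripts are orange and heavy-strand ones grey, and lines join the values of 1 gene. MT-ND6 and most light-strand tRNA genes are highest in control replicate 3.

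In the libraries that stood apart, the nuclear genes shared no single shift. Over the 81 tested nuclear genes, the median log2 difference from the other 2 libraries of the group was -0.016 (SD over genes 0.098) for SK4 replicate 2 and -0.00041 (SD 0.115) for control replicate 3. Across these genes, which share their libraries, the differences of both libraries correlated with each other (Pearson r = 0.67) and with GC content (r = 0.51 for SK4 replicate 2 and 0.50 for control replicate 3). The genes lowest in control replicate 3, named after their values were seen, were ATP5PB of the stalk (-0.31), UQCRB (-0.28), NDUFS4 of the N module (-0.28), SDHD (-0.26) and NDUFS1 of the N module (-0.23). For the 13 mitochondrial genes the median was 0.063 in SK4 replicate 2 and 0.096 in control replicate 3, and none of the 13 was below 0 in control replicate 3. These 2 libraries are 1 of each group, and their part in the comparison is given by the values without them.

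**Figure D4:**
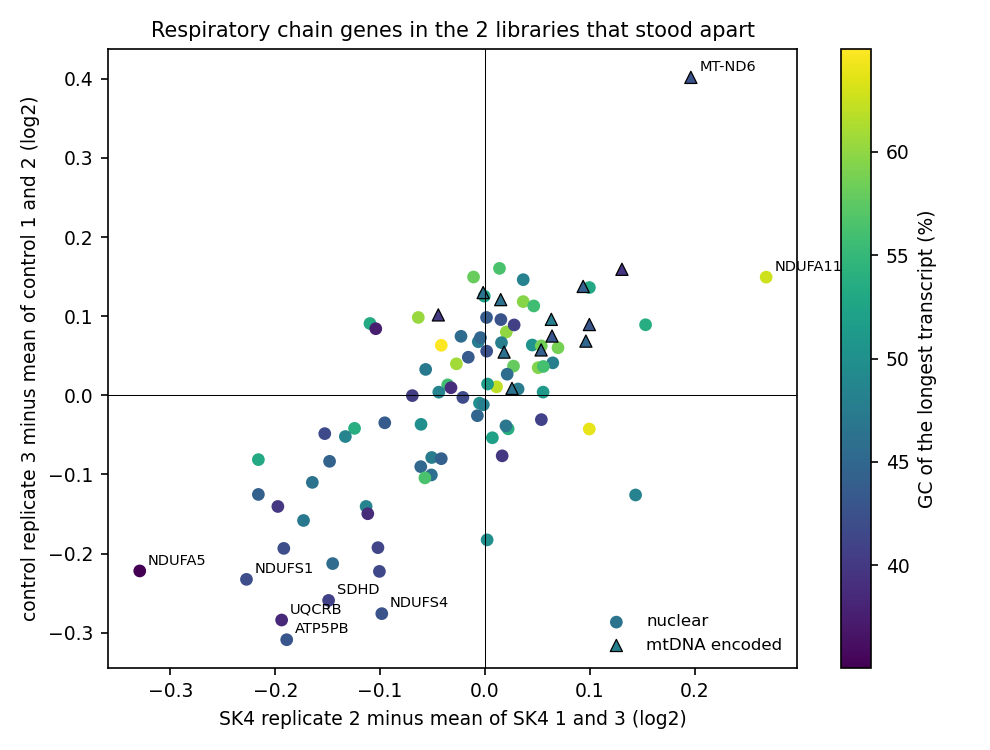
Log2 difference of SK4 replicate 2 from the mean of SK4 replicates 1 and 3 (horizontal) against that of control replicate 3 from control replicates 1 and 2 (vertical), 1 point per tested gene, coloured by GC content. Nuclear genes of lower GC content such as UQCRB and ATP5PB are low in both libraries, and MT-ND6 is highest in control replicate 3.

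Several nuclear genes overlap another gene in the annotation. Of the 85 nuclear genes other than the 2 readthrough genes, 8 share exon bases on the same strand with another protein-coding gene that had more FPKM. These 8 had a median of 8.57 FPKM, against 43.7 FPKM for the others. The widest gap was at NDUFA7, an accessory subunit of complex I with 0.24, 0.10 and 0.09 FPKM in SK4 libraries and 0.18, 0.06 and 0.07 FPKM in control libraries. CTD-2550O8.5 overlaps 32.3% of its exon bases and averaged 101 ± 3.10 FPKM in SK4 libraries and 99.6 ± 2.74 FPKM in control libraries. NDUFA11 overlaps AC024592.12, which averaged 40.5 ± 1.10 FPKM in SK4 libraries and 40.8 ± 1.91 FPKM in control libraries. NDUFC2, a membrane subunit, averaged 9.04 ± 0.0866 FPKM in SK4 libraries and 8.97 ± 0.378 FPKM in control libraries. Its readthrough gene NDUFC2-KCTD14 had 72.74, 73.07 and 79.5 FPKM in SK4 libraries and 80.88, 80.84 and 75.18 FPKM in control libraries (log2 fold change -0.07, limma unadjusted p = 0.182). ATP5PO overlaps AP000304.12, which averaged 66.8 ± 3.50 FPKM in SK4 libraries and 66.2 ± 2.76 FPKM in control libraries (log2 fold change 0.01). None of the overlapping genes was called. How reads shared by such genes were assigned is not given in the sources used here, so the levels of these members are uncertain.

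**Figure D5:**
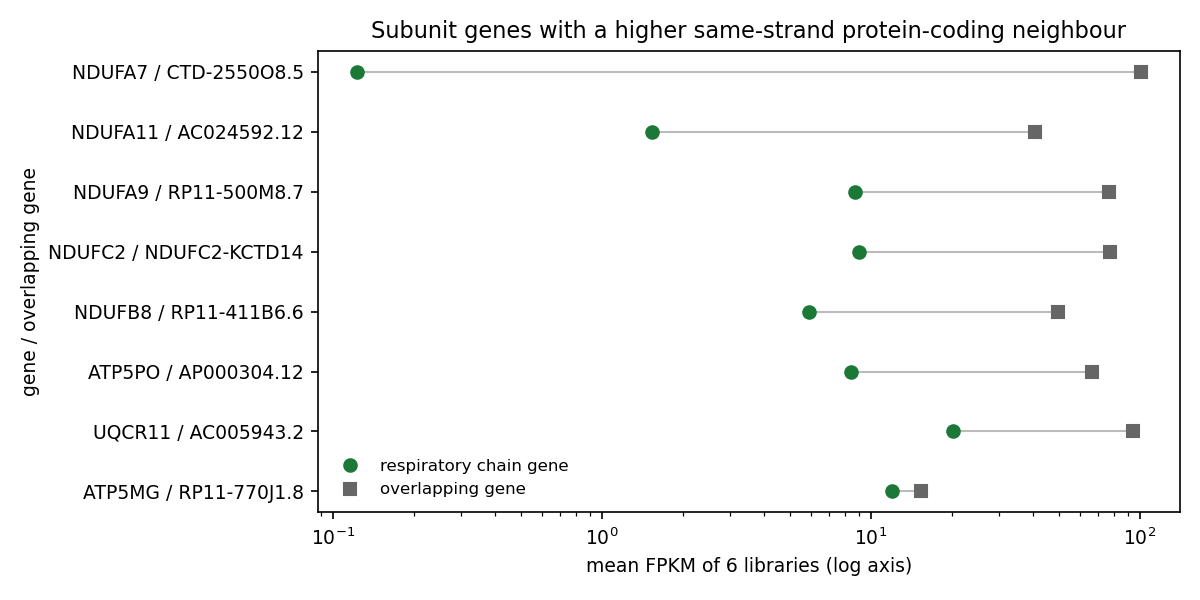
Mean FPKM of 6 libraries (log axis) of the 8 nuclear genes (circles) and of the protein-coding gene that overlaps each on the same strand at a higher level (squares). The gap is widest for NDUFA7 and narrowest for ATP5MG.

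Promoter sequences, which the choice by symbol did not use, were searched for the letters of known binding motifs. The factors NRF1, GABPA of the ETS family and YY1 are known regulators of respiratory chain genes. RefSeq promoters (GRCh38.p14, 250 bases before to 50 after the start site) were matched for 70 of the 87 nuclear genes. The ETS letters CCGGAAG, searched on both strands, were in 20 of 70 (28.6%), against 21.1% of the promoters of genes tested here and 10.7% of all promoters. The NRF1 letters GCGCATGCGC were in 4 of 70 (5.71%), against 2.44% and 1.36%. The YY1 letters AAGATGGCG were in 8 of 70 (11.4%), against 4.45% and 1.85%. None of the 3 strings holds another, a match is only a description, and 41 of 70 promoters (58.6%) held none of them. Tested genes with the ETS letters had a median level of 92.7 FPKM (20 genes) and those without 37.7 FPKM (46 genes). Their median log2 fold changes were -0.014 and -0.018. For the NRF1 letters the median levels were 62.8 FPKM (4 genes) with and 43.0 FPKM (62 genes) without. For the YY1 letters they lay the other way, at 38.7 FPKM (7 genes) with and 44.9 FPKM (59 genes) without.

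The 170 bases before the start site are printed for 3 genes, chosen after their values were seen to show where the letters sit in genes of high level. They are COX8A (chr11:63974450-63974619, plus strand) and NDUFB7 of the distal arm of complex I (chr19:14572067-14572236, minus strand), with the ETS letters, and NDUFB4 of the same arm (chr3:120596166-120596335, plus strand), with the NRF1 letters. Capitals mark the letters found, which begin 18, 24 and 159 bases before the start site, and each run is 5′ to 3′ on the strand of its gene, so that COX8A holds the reverse complement.
COX8A: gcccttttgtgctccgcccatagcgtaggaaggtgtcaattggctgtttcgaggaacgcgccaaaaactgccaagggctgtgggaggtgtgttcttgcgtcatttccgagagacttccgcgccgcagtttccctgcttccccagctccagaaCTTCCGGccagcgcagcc
NDUFB7: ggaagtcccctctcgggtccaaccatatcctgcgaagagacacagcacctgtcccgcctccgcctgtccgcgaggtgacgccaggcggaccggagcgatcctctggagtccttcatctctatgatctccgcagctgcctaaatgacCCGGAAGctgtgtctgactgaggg
NDUFB4: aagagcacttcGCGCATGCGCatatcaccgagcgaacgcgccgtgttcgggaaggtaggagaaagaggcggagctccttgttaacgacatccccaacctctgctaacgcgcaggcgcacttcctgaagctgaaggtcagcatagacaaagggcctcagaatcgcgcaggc
NDUFB7 had 125.72, 123.68 and 128.92 FPKM in SK4 libraries and 130.91, 120.15 and 131.05 FPKM in control libraries. NDUFB4 had 66.54, 67.52 and 70.55 FPKM in SK4 libraries and 66.04, 70.47 and 68.09 FPKM in control libraries. In both genes the groups overlapped, as they did for COX8A.

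Genes that build, feed or regulate the chain gave 0 called genes in each list, also at an unadjusted p below 0.05. Of 51 tested assembly factors, 21 had a positive log2 fold change (median -0.013). NDUFAF8, a complex I assembly factor, averaged 20.6 ± 0.821 FPKM in SK4 libraries and 21.9 ± 0.907 FPKM in control libraries. UQCC3, which acts in complex III assembly, averaged 10.1 ± 0.676 FPKM in SK4 libraries and 10.9 ± 0.30 FPKM in control libraries. SCO2, a copper chaperone of complex IV, was the highest of these at 72.6 ± 3.02 FPKM in SK4 libraries and 71.2 ± 2.24 FPKM in control libraries. Of 14 tested genes for electron carriers and coenzyme Q synthesis, 5 were positive (median -0.015). COQ10A, a coenzyme Q binding protein, had 3.69, 4.04 and 3.97 FPKM in SK4 libraries and 3.28, 3.69 and 3.39 FPKM in control libraries, meeting at 3.69 FPKM (log2 fold change 0.16, limma unadjusted p = 0.0644). COQ4 averaged 5.94 ± 0.243 FPKM in SK4 libraries and 6.30 ± 0.336 FPKM in control libraries, and CYC1, the cytochrome c1 of complex III, averaged 129 ± 6.42 FPKM in SK4 libraries and 133 ± 6.23 FPKM in control libraries.

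The genes that read out the mitochondrial genome differed little as well. Of 15 genes for mitochondrial transcription and genome maintenance, 6 had a positive log2 fold change (median -0.022). TFB1M, which methylates the small mitochondrial ribosomal RNA, had 3.67, 3.5 and 3.59 FPKM in SK4 libraries, against 3.47, 3.23 and 3.08 FPKM in control libraries, and its groups did not overlap (log2 fold change 0.12, limma unadjusted p = 0.117). MTERF1, a transcription termination factor, averaged 2.71 ± 0.307 FPKM in SK4 libraries and 2.99 ± 0.465 FPKM in control libraries. SSBP1, the single-strand binding protein, averaged 52.1 ± 3.76 FPKM in SK4 libraries and 52.9 ± 4.98 FPKM in control libraries. Of 17 genes for mitochondrial RNA processing and stability, 14 were positive, or 82.4%, against 57.9% of all tested genes (median 0.044, against 0.011). Control replicate 3 was the lowest control library for 14 of the 17. Without it 5 of 17 were positive, or 29.4%, against 39.0% of all tested genes (median -0.029, against -0.021). Without SK4 replicate 2, 14 of 17 were positive (median 0.065), against 63.2% of all tested genes (median 0.024). Without both libraries 10 of 17 were positive, or 58.8%, against 45.1% of all tested genes (median 0.0020, against -0.0076). SUPV3L1, a helicase of RNA decay, had 11.33, 11.34 and 12.13 FPKM in SK4 libraries and 11.89, 11.17 and 9.65 FPKM in control libraries. PRORP, the nuclease of mitochondrial RNase P, had 5.31, 5.37 and 5.29 FPKM in SK4 libraries and 5.21, 5.39 and 4.72 FPKM in control libraries. Control replicate 3 was the low library of both. Without it their log2 fold changes were 0.0083 for SUPV3L1 and 0.0059 for PRORP, against 0.09 and 0.06 with all libraries. Without SK4 replicate 2 they were 0.11 and 0.05, and without both libraries 0.024 and 0.00017. HSD17B10, of the same enzyme, averaged 47.4 ± 1.42 FPKM in SK4 libraries and 48.3 ± 1.65 FPKM in control libraries.

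Among 9 tested nuclear regulators, 4 were positive. MYC, a factor that drives growth genes, had 116.34, 109.58 and 112.48 FPKM in SK4 libraries and 110.2, 112.12 and 100.37 FPKM in control libraries. HIF1A, the oxygen-regulated factor, had 10.84, 8.16 and 9.52 FPKM in SK4 libraries and 8.8, 9.78 and 6.94 FPKM in control libraries. Control replicate 3 was again the low one. Without it the log2 fold changes were 0.02 for MYC and 0.02 for HIF1A, against 0.07 and 0.16 with all libraries. Without SK4 replicate 2 they were 0.09 and 0.26, and without both libraries 0.04 and 0.12. In the tricarboxylic acid cycle, which supplies NADH and succinate, 9 of 13 genes were positive (median 0.0079). DLD had 22.05, 16.64 and 20.38 FPKM in SK4 libraries and 20.23, 19.91 and 14.86 FPKM in control libraries. Its log2 fold change was 0.10 with all libraries and -0.04 without control replicate 3. It was 0.22 without SK4 replicate 2 and 0.08 without both libraries. SUCLG1 averaged 23.2 ± 0.164 FPKM in SK4 libraries and 23.7 ± 0.814 FPKM in control libraries, and MDH2 averaged 118 ± 4.09 FPKM in SK4 libraries and 118 ± 2.35 FPKM in control libraries. The groups of these genes overlapped. Counts in the other lists also moved with the 2 libraries, as did those over all tested genes. Without SK4 replicate 2, 27 of 51 assembly factors, 6 of 14 carrier and coenzyme Q genes, 9 of 15 transcription and maintenance genes, 8 of 9 regulators and 7 of 13 cycle genes were positive. Without control replicate 3 the counts in the same order were 14, 2, 2, 3 and 5. Without both libraries they were 17, 4, 3, 3 and 5. Over all tested genes, the positive share was 57.9% with all libraries and 63.2% without SK4 replicate 2. It was 39.0% without control replicate 3 and 45.1% without both.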

How the data were processed

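Polyadenylated RNA of 6 samples was captured and sequenced as strand-marked 150 nt paired-end libraries, per the labels' protocols. HISAT2 and GRCh38 are named, per the submitters' processing notes; versions, counting tool and annotation release are not given in the sources used here. Values of 32896 genes are FPKM as the authors deposited them, rounded, in 1 table. Depth was estimated from 561 single-exon genes under 160 nt. There, 99.4% to 99.5% of values of up to 5 fragments came out whole within 0.1. For 1 kb at 1 FPKM, counting error alone gives a coefficient of variation of 16.1% to 18.3%. The 11139 genes that reached 1 FPKM in 3 or more libraries were taken as log2(FPKM + 0.5), a scale that understates changes of low genes. They were compared with limma 3.58.1 (R 4.3.3; trended, robust prior variance) with Benjamini-Hochberg adjustment over all of them, after a test on simulated data. KCNN4 also had an exact permutation test. Values are mean ± SD, n = 3 each.

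Coordinates, GC content and overlaps came from GENCODE release 29 on GRCh38, to which 31726 of 32896 identifiers and all 100 members matched. The members, lists and tests were chosen with earlier results of these data known. The genes named were KCNN4, all mitochondrial members, and the 2 highest and 2 lowest tested genes of each nuclear complex. Also named were the 5 smallest unadjusted p in each direction, isoform sets, NDUFA4 and ATP5IF1. From each other list outside the cell type markers came the 2 smallest p and the highest level. Cell type markers are given mainly as sums. Alternatives covered the pseudocount, filter, scaling, library weights, prior variance, replicate number and left-out libraries.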

Additional observations from a re-analysis of the deposited data

How the results depend on the processing

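Across 16 alternative settings, 0 respiratory chain genes were called in any. With SK4 replicate 2 and control replicate 3 both left out, 4 genes were called over the whole table, against 1 with all libraries. The median log2 fold change of the nuclear genes was -0.015, and -0.027 under median ratio scaling; leaving out 1 library at a time it lay between -0.020 and 0.00026, the highest value without SK4 replicate 2. The causes were not tested. Leaving out 1 library, the mitochondrial median lay between -0.029 and 0.030. Members with an unadjusted p below 0.05 numbered 4 with library weights, against 0 in the main setting. The count was 1 without SK4 replicate 2, without control replicate 3, or without both. The share of all tested genes under these settings is not given here, so the counts are not read as a result about the members. Of 685 values of 43 named members, 2 moved by over 1 SD (MT-ND3 to 0.06 with library weights and ATP5MG to 0.0027 without both libraries), and 74, in 30 members, had the other sign. With NDUFA4 counted in complex I, the medians were -0.0085 for complex I and -0.0061 for complex IV. The deviations of same-numbered libraries correlated over genes at r = 0.31, -0.41 and -0.15 for replicates 1, 2 and 3. These values cannot settle whether the numbers pair the libraries. SK4 replicate 2 and control replicate 3, which differ in number, deviated alike over all tested genes (Pearson r = 0.53). With the replicate block, 1 gene was called over the whole table, KCNN4's log2 fold change was 4.23, the nuclear and mitochondrial medians were -0.015 and 0.0068, and 0 members were called. Leaving out 1 library, KCNN4's log2 fold change lay between 4.16 and 4.32. Genes below 1 FPKM were not tested.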

Other observations

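The light-strand tRNA genes of the mitochondrial genome, which are no part of the comparison, had a summed level of 508, 721 and 647 FPKM in SK4 libraries and 518, 551 and 1038 FPKM in control libraries. MT-TS1, the highest of them, had 185.02, 292.5 and 208.76 FPKM in SK4 libraries and 188, 188.12 and 396.79 FPKM in control libraries. MT-TN had 83.31, 122.05 and 121.68 FPKM in SK4 libraries and 89.61, 88.91 and 190.06 FPKM in control libraries. MT-TQ was the 1 of the 8 that was not highest in control replicate 3, with 47.94, 39.24 and 41.24 FPKM in SK4 libraries and 44.07, 51.56 and 45.84 FPKM in control libraries. The 14 heavy-strand tRNA genes summed to 463, 481 and 493 FPKM in SK4 libraries and 465, 481 and 500 FPKM in control libraries. These genes are shorter than a read, so a fragment that covers one also covers its neighbours, and such values are uncertain.

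The mitochondrial ribosomal RNA genes were present in these poly(A) libraries. MT-RNR2 had 3063.4, 2951.91 and 3330.24 FPKM in SK4 libraries and 2810.83, 3045.38 and 2872.29 FPKM in control libraries, with overlapping groups. MT-RNR1 had 1369.98, 1349.87 and 1347.82 FPKM in SK4 libraries and 1179.17, 1366.08 and 1284.22 FPKM in control libraries.

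Nuclear copies of mitochondrial genes also held signal. MTATP6P1, a pseudogene that resembles MT-ATP6, averaged 594 FPKM over all libraries, or 15.2% of the level of MT-ATP6. It ranged from 561 to 628 FPKM in SK4 libraries and from 545 to 635 FPKM in control libraries. MTND2P28 averaged 132 FPKM and MTCO1P12 22.5 FPKM. Of the nuclear members, 29 had pseudogenes in the table, and for 4 of them the highest pseudogene reached 1 FPKM, UQCRFS1P1 at 2.32 FPKM being the highest. How reads shared between these copies were assigned is not given in the sources used here.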
